A study of Mus musculus with 36 samples.

Results

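The genes described here are 54 genes of the primary cilium, chosen by symbol from 18049 genes listed with counts for kidney libraries. They are genes of nephronophthisis, of the ciliary transition zone, of the BBSome and of intraflagellar transport (IFT). The rule takes them by symbol, and all 54 were found once each and passed the filter on low counts at every age. By role there were 11 genes of the IFT-B train, 6 of IFT-A, 4 of the IFT motors, 7 of the BBSome, 3 of the BBS GTPase and chaperonin group, 12 of the MKS module and 4 of the NPHP module of the transition zone. A further 3 belong to the inversin compartment, 2 to the ciliary membrane, 1 to the distal appendages, and 1, Glis2, encodes a zinc finger transcription factor.

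RNA came from whole kidneys of C57BL/6 mice at postnatal day 0 (P0), day 3 (P3) and day 12 (P12). At each age there were 4 genotypes: WT, Pkd1-RC/RC (homozygous for a hypomorphic missense allele of Pkd1), Pkhd1-/- (lacking Pkhd1) and Digenic, which is homozygous for both. Each of the 12 groups had 3 libraries, 36 in all, and no group carried a further allele or treatment by its labels. The labels name no Cre driver or inducing agent, and they do not say whether the 3 mice of a group were littermates. The question the design asks is whether the 2 mutations interact.

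The primary cilium is a sensory antenna on tubular epithelial cells, and the products of Pkd1 and Pkhd1 are both found there. IFT-B trains driven by kinesin-2 carry cargo to the tip, and IFT-A trains driven by dynein-2 carry it back. The transition zone at the base acts as a gate, the BBSome moves membrane proteins out of the cilium, and mutations in genes of each of these groups cause cystic or fibrotic kidney disease.

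Many ciliary genes carry an X-box, the binding motif of RFX transcription factors, near their start sites, and matches to it were sought in the promoters of these genes. RefSeq promoter windows (GRCm38.p6, 250 bases before to 50 after the start) were found for 47 of the 54 genes. A 14-base X-box made of GTTNCC, any 2 bases and GGNAAC, on either strand, occurred in 4 of the 47 and in 0.529% of 27025 genes with a window. A looser spelling with GTNNCC in place of GTTNCC, which includes the first, occurred in 13 of the 47 (27.7%) and in 1.49% of the 27025. The half-site GTTGCC, which overlaps both, occurred in 23 of the 47 (48.9%) and in 14.1% of the 27025. Those 27025 genes were not limited to genes counted in kidney, as the 54 are. In all, 10 spellings were tried, and these 3 are described, the looser 14-base one having been chosen after its matches were seen. The other 7 matched between 0 and 6 of the 47. Sites of 4 genes with the first spelling and of 2 genes, Bbs1 and Tmem231, whose levels differed at P12 are printed here with the motif in capitals.
Ahi1: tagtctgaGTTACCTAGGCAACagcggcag
Bbs7: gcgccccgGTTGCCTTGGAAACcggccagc
Mks1: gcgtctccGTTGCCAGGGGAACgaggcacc
Tctn1: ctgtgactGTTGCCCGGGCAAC
Bbs1: tcccaggcGTCGCCTTGGCAACcagctcag
Tmem231: agcgccgaGTCTCCACGGCAACcgacggcg
They lie at chr10:20952560-20952589 on the plus strand (Ahi1), chr3:36613489-36613518 on the minus strand (Bbs7), chr11:87853183-87853212 on the plus strand (Mks1) and chr5:122264411-122264432 on the minus strand (Tctn1, ending with its window). Those of Bbs1 and Tmem231 lie at chr19:4906605-4906634 and chr8:111933781-111933810, both printed from the plus strand. A match is a description of letters and not evidence of binding. Genes with and without a match to the looser spelling had similar median changes, 0.46 and 0.42 (log2) from P0 to P12 in WT and -0.09 and -0.13 in Digenic against WT at P12.

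Total counts ran from 51411240 to 80789299 per library. Kidney markers were present in every library, Slc34a1 between 148 and 990 and Umod between 47.6 and 821 RPKM (reads per kilobase of exon, scaled to library size, the unit of all levels here). Pkhd1 stood at 0.412 to 2.29 RPKM in the 18 libraries labelled with Pkhd1-/- and at 4.30 to 17.4 RPKM in the other 18. Pkd1 did not separate the genotypes, as a missense allele need not change the RNA level, so it checks no label. Of 36 column headers, 2 disagreed with the labels in age or genotype (Digenic P12 replicate 1 and Pkd1-RC/RC P12 replicate 2). The labels were followed, and both columns carry the animal number of the label. The sex read from sex-linked transcripts differed from the header in 3 of 36 libraries (Pkhd1-/- P0 replicate 1, Pkd1-RC/RC P3 replicate 1 and Pkhd1-/- P3 replicate 2), and the fit with sex used the sex read from transcripts. Transcripts of adrenal steroid synthesis were high in 9 libraries, with a summed level of 41.4 to 493 CPM against 2.05 to 7.62 in the other 27. These sums are scaled by the library total alone. All other CPM values here, like RPKM, also carry TMM factors, a scaling between libraries, so later adrenal sums differ slightly. Those 9 include WT P0 replicate 1, Digenic P3 replicate 3 and Digenic P12 replicates 2 and 3.

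In WT kidneys the highest ciliary genes were Dync2li1, the light intermediate chain of dynein-2, Glis2 and Ift20, a Golgi-associated IFT-B subunit, at P0. Dync2li1 stood at 27.4 ± 1.51, Glis2 at 26.4 ± 5.03 and Ift20 at 21.4 ± 1.42 RPKM (mean ± SD, n = 3), and the first 2 overlapped. At P3 the order was Glis2 (40.5 ± 1.88), Dync2li1 (30.1 ± 1.68) and Ift22 (23.5 ± 3.26), and at P12 Glis2 (64.7 ± 6.18), Dync2li1 (39.1 ± 2.72) and Ift22 (25.5 ± 0.141), with no overlap among these 3 at P12. The lowest were Cep290 (0.541 ± 0.215), Rpgrip1l (0.553 ± 0.263) and Nphp4 (0.646 ± 0.247) at P0, all transition zone genes whose values overlapped. Nphp4 was lowest at P3 (1.03 ± 0.230) and P12 (0.896 ± 0.0474), followed by Rpgrip1l (1.23 ± 0.377 and 1.37 ± 0.0418). The third lowest was Dync2h1 (1.39 ± 0.313) at P3 and Tmem67 (1.43 ± 0.0921) at P12. The median of the 54 WT means was 3.12 RPKM at P0, 4.30 at P3 and 5.29 at P12.

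**Figure D1:**
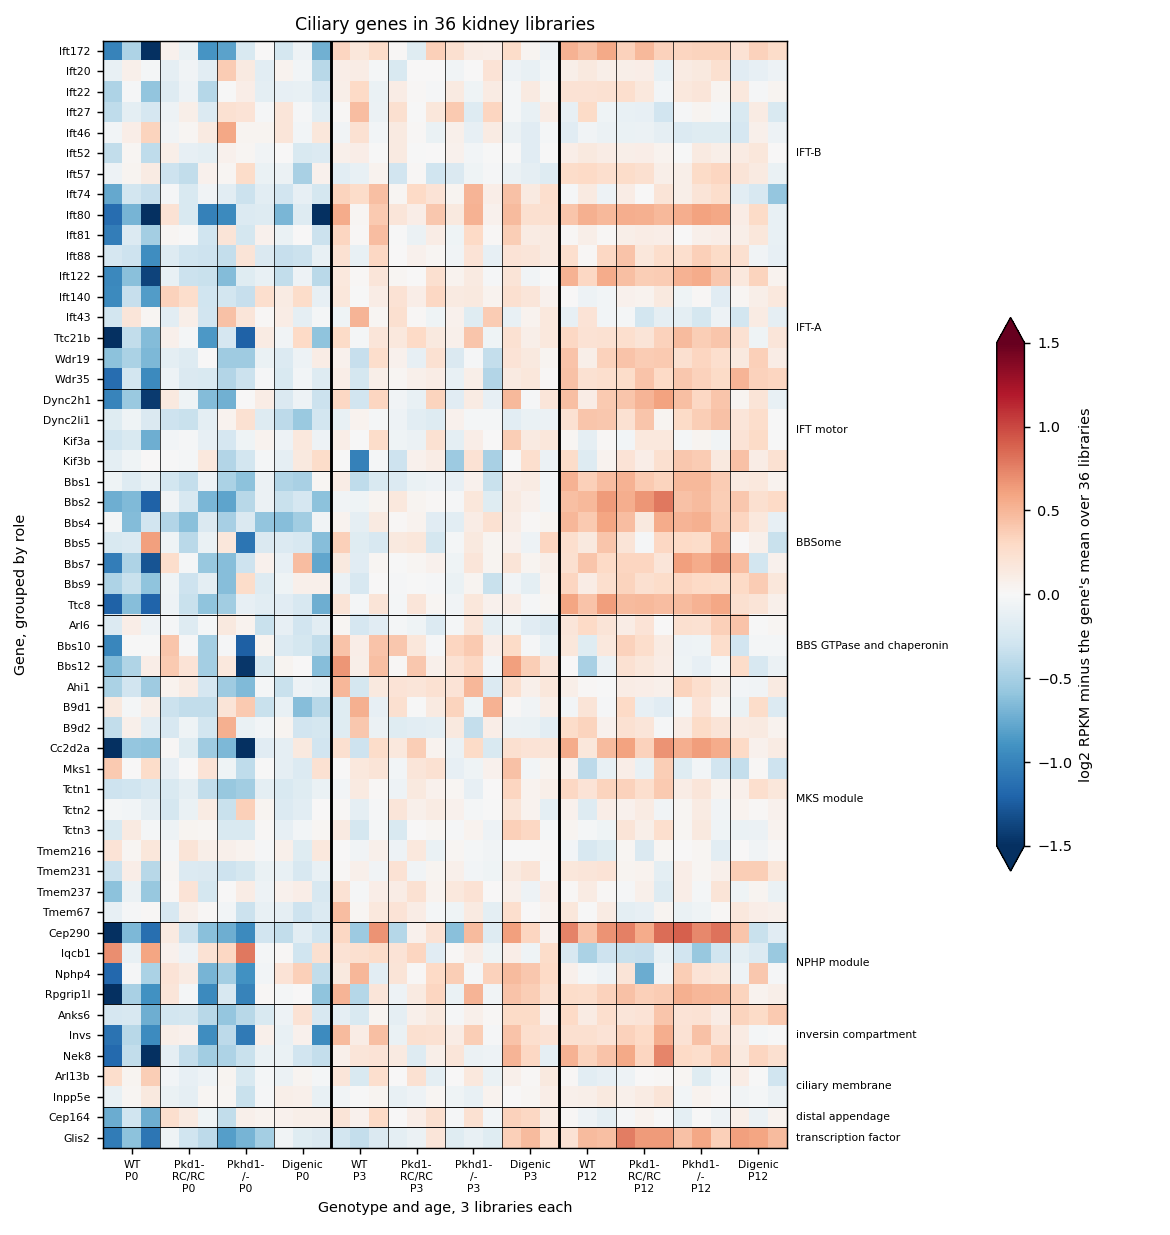
Each row is 1 of the 54 genes, grouped by role, and each column 1 of 36 libraries, ordered by age and genotype; colour is log2 RPKM minus the gene's mean over all libraries, red high and blue low. The WT P0 columns have median deviations of -0.43, -0.22 and -0.44, and those of the 3 WT P12 columns are 0.22, 0.15 and 0.20.

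More ciliary transcripts rose than fell as WT kidneys matured. Between P0 and P12, 33 of the 54 genes (61.1%) rose and 3 fell (edgeR quasi-likelihood test, adjusted p under 0.05), where 26.2% of all 18049 genes rose and 23.6% fell. The median log2 change of the 54 was 0.49 against 0.02 for all genes. From P0 to P3, 28 genes rose and 0 fell (12.8% and 11.9% of all genes), with a median of 0.47. From P3 to P12, 9 rose and 2 fell (18.6% and 17% of all genes), with a median of 0.12. The 11 calls from P3 to P12 became 5 without either WT P3 replicate 2 or WT P12 replicate 3, 6 without replicate 1 of either age and 7 without WT P3 replicate 3, and the P0 to P3 count was 16 when the spread was taken from those 6 libraries alone.

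Gene length and cell-type markers moved with this rise. The median length of the 54 genes was 4388 bases against 3321 for all genes, and the median change from P0 to P12 was 0.66 for the 27 longer and 0.34 for the 27 shorter (0.66 and 0.28 from P0 to P3). With the length trend removed, 35 rose and 5 fell from P0 to P12, with a median of 0.43, and 28 rose from P0 to P3. The shares of all genes risen and fallen in that fit are not given here, so these counts are not read as an excess. Over the same ages in WT, the nephron progenitor list went from 87.6 to 185 down to 46.9 to 58.5 CPM summed (4 of 6 genes fallen, 2 risen). The loop of Henle list went from 662 to 838 up to 3090 to 3380 (3 of 3 risen) and the proximal tubule list from 2220 to 3390 up to 4940 to 6140 (3 of 6 risen, 1 fallen). Their part in the ciliary rise was not tested. In whole kidney, fewer cells of a type and less RNA per cell cannot be told apart.

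By role, the rise from P0 to P12 took in 7 of 11 IFT-B genes, 5 of 6 IFT-A genes, 3 of 4 motor genes, 6 of 7 BBSome genes and all 3 inversin compartment genes. It took in 5 of 12 MKS module genes, where 1 fell, and 2 of 4 NPHP module genes, where 1 fell. None of the 3 BBS GTPase and chaperonin genes was called. Glis2 went from 23.9, 32.2 and 23.2 RPKM in the 3 P0 libraries to 57.6, 68.8 and 67.6 at P12, a log2 change of 1.29 ± 0.12 (SE, adjusted p = 5.76e-10). Ttc8, a BBSome subunit, went from 3.13, 4.67 and 3.17 to 10.9, 9.74 and 11.2 RPKM (1.54 ± 0.15, adjusted p = 2.37e-09). Ift122 of IFT-A went from 2.39, 3.04 and 1.79 to 6.72, 5.83 and 6.88 RPKM (1.43 ± 0.14, adjusted p = 4.78e-09). Bbs2, also of the BBSome, went from 2.81, 2.95 and 2.01 to 6.38, 6.55 and 7.25 RPKM (1.38 ± 0.16, adjusted p = 4.79e-08). In each of these 4 genes, picked by their adjusted p, the ages did not overlap.

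From P0 to P12 in WT the 3 falls were those of Iqcb1, Tmem216 and Arl13b. Iqcb1, which partners Cep290 at the transition zone, went from 3.25, 1.85 and 3.01 to 1.70, 1.44 and 1.62 RPKM (-0.77 ± 0.19, adjusted p = 0.00133). Tmem216 changed by -0.29 ± 0.10 (adjusted p = 0.0185) and Arl13b, a GTPase of the ciliary membrane, by -0.32 ± 0.12 (adjusted p = 0.0339). Both calls were lost in 4 of 6 fits without 1 library (WT P0 replicate 1 or 3, or WT P12 replicate 2 or 3), and that of Iqcb1 in 0. Iqcb1 and Ift74 were the 2 genes that fell from P3 to P12, by 0.58 and 0.34 on the log2 scale. The Iqcb1 call was lost without WT P12 replicate 2, and the Ift74 call without WT P3 replicate 2 or 3 or WT P12 replicate 1 or 3. Ift74 had risen from P0 to P3, by 0.80 ± 0.13 (adjusted p = 0.000157), so its P12 level stood between the other ages. From P3 to P12 the 4 rises with the smallest adjusted p were Glis2 (0.67), Bbs1 (0.60), Dync2li1 (0.38) and Bbs2 (0.56).

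Each mutant also had more rises than falls from P0 to P12. In Pkd1-RC/RC 21 genes rose and 0 fell (20.9% and 20.6% of all genes), in Pkhd1-/- 30 rose and 2 fell (23.8% and 23.1%), and in Digenic 16 rose and 0 fell (16.9% and 15.9%). The median log2 changes were 0.34, 0.37 and 0.24. Glis2 rose in each mutant, by 0.93, 1.13 and 0.71 on the log2 scale, and Cep290 stood at 0.96, 1.44 and, not called, 0.28 (adjusted p = 0.492 in Digenic). The Digenic count was 8 without Digenic P0 replicate 3, 10 without either other P0 library, and 9 without Digenic P12 replicate 2 or replicate 1, the library whose header gives another age. Without the adrenal-bearing libraries it was 8, with 1 Digenic P12 library left, and the Pkhd1-/- count was 16.

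**Figure D2:**
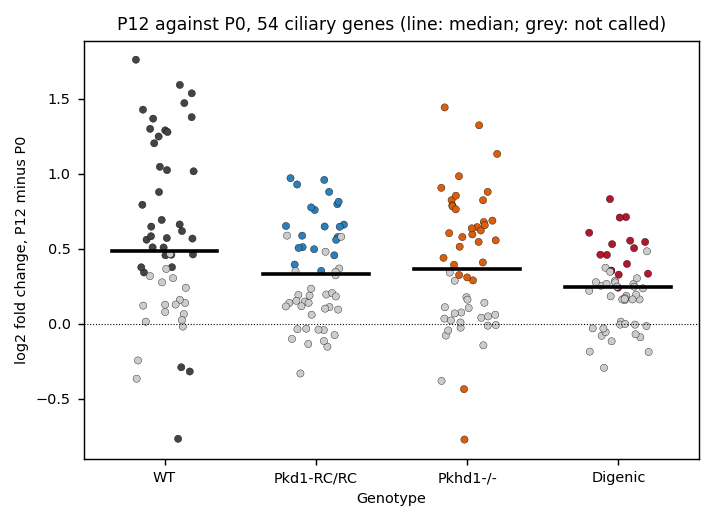
Log2 change from P0 to P12 (vertical axis) of the 54 genes in each of the 4 genotypes; coloured points passed adjusted p under 0.05, grey ones did not, and lines are medians. The medians are 0.49 in WT, 0.34 in Pkd1-RC/RC, 0.37 in Pkhd1-/- and 0.24 in Digenic.

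The difference between the Digenic and the WT change was itself tested. The called differences were negative for 10 genes and positive for 0 (3.57% and 5.22% of all genes). Of the 54 differences, called or not, 14 were above 0. The median was -0.50 for the 27 longer and -0.13 for the 27 shorter genes. With the length trend removed 6 genes were called, and the share of all genes in that fit is not given here. The part of gene length was not tested. The 4 with the smallest adjusted p were Ttc8 (-1.01 ± 0.21, adjusted p = 0.00236), Ift122 (-0.97 ± 0.20, adjusted p = 0.00246), Cep290 (-1.48 ± 0.41, adjusted p = 0.0214) and Glis2 (-0.58 ± 0.16, adjusted p = 0.0225). The calls of Ttc8 and Ift122 held when any 1 of the 12 libraries was left out. The count ranged from 2, without WT P0 replicate 1 or Digenic P12 replicate 3, to 18, without WT P0 replicate 2. It was 3 to 6 without WT P0 replicate 3, Digenic P0 replicate 1 or 2, any WT P12 library or Digenic P12 replicate 2. Without the adrenal-bearing libraries it was 1, Ift122 (-0.95, adjusted p = 0.0352), Ttc8 was at -0.80 (adjusted p = 0.112), Cep290 at -0.78 (adjusted p = 0.392) and Glis2 at -0.42 (adjusted p = 0.319).

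The same WT P0 libraries enter the comparisons at P0. The median log2 difference from WT at P0 was 0.23 in Pkd1-RC/RC, 0.21 in Pkhd1-/- and 0.22 in Digenic, where the medians of all genes were 0.00. These 3 comparisons share their WT libraries. By each library's median deviation over the 54 genes, WT replicates 1 and 3 (-0.43 and -0.44) lay below all 9 mutant libraries (-0.27 to -0.05), and WT replicate 2 (-0.22) lay among them. Genes passing in edgeR numbered 0, 0 and 1 of 54 (0.0166%, 0.0111% and 0.671% of all genes passed), while 20, 11 and 15 genes had an unadjusted p under 0.05. These are 37.0%, 20.4% and 27.8% of the 54, where 10.4%, 4.71% and 16.4% of all genes had such a p. DESeq2 called 2, 0 and 5 genes, and edgeR with all 36 libraries in the fit 7, 1 and 12. The shares of all genes passing in these other fits are not given here, so these counts are not read as an excess of the 54. Longer genes differed more: in Digenic against WT at P0 the median was 0.53 for the 27 longer and 0.00 for the 27 shorter of the 54 (0.47 and 0.06 in Pkd1-RC/RC). The part of gene length in these differences was not tested. Cep290, Bbs7 and Rpgrip1l had the 3 largest positive values in Digenic at P0 (0.87 ± 0.29, 0.84 ± 0.33 and 0.83 ± 0.39) and Bbs5, B9d1 and Iqcb1 the 3 largest negative ones (-0.46 ± 0.32, -0.43 ± 0.19 and -0.42 ± 0.25), none of them called. Digenic against Pkd1-RC/RC and against Pkhd1-/- at P0 gave 0 called genes each. Of all genes 0.0388% passed in the first (0.0277% rose) and 0.244% in the second (0.0721% fell). Before adjustment 0 and 5 of the 54 (9.26%) had p under 0.05, below the shares of all genes (5.04% and 14.9%), and DESeq2 called 0 and 1. The interaction at P0 also gave 0 (0.00554% of all genes); before adjustment 4 (7.41%) had p under 0.05, near the 5.92% of all genes, and DESeq2 called 0.

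Glis2 was the gene that rose in Digenic kidneys at P0. It lies at chr16:4594713-4624924 (mm10) on the plus strand, and its loss causes nephronophthisis. It stood at 23.9, 32.2 and 23.2 RPKM in WT, at 47.2, 40.1 and 37.5 in Pkd1-RC/RC, at 27.9, 30.4 and 34.6 in Pkhd1-/- and at 47.4, 43.6 and 42.6 in Digenic. All Digenic and all Pkd1-RC/RC libraries lay above all WT libraries, and Pkhd1-/- overlapped WT. The log2 change in Digenic was 0.76 ± 0.15 (adjusted p = 0.0367), and in Pkd1-RC/RC it was 0.65 ± 0.15 (adjusted p = 0.258). The Digenic call was lost in 5 of 6 fits that left out 1 of its libraries, all except WT replicate 2, with values of 0.65 to 0.93, and without the adrenal-bearing libraries (0.68, adjusted p = 0.140). Ift140, an IFT-A gene that lies 0.42 Mb from Pkd1 on chromosome 17, was 0.80 ± 0.23 higher in Digenic and 0.81 ± 0.23 higher in Pkd1-RC/RC at P0 (adjusted p = 0.128 and 0.406). Glis2, Ift140 and Cep164 passed in Digenic at P0 in the authors' deposited table, with log2 changes of 0.76, 0.80 and 0.67 at FDR under 0.05. These are 3 of 54, near the share of all genes passing there (4.52%).

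At P3 Glis2 again was the 1 gene of 54 that rose in Digenic against WT, and 0 fell (2.7% of all genes passed, 2.09% risen and 0.61% fallen). It stood at 40.6, 38.6 and 42.4 RPKM in WT, 44.6, 46.6 and 56.0 in Pkd1-RC/RC, 43.4, 45.8 and 43.7 in Pkhd1-/- and 63.3, 68.3 and 58.8 in Digenic. The 3 Digenic libraries lay above the 9 others. The log2 change was 0.64 ± 0.09 against WT (adjusted p = 0.00509), and this call held in all 6 fits without 1 library and in all 8 other alternatives. Against Pkhd1-/- it was 0.50 ± 0.09 (adjusted p = 0.0124, 1 gene called, where 3.49% of all genes passed and 2.65% rose) and against Pkd1-RC/RC 0.37 ± 0.09 (adjusted p = 0.112, 0 genes called, 0.46% of all genes). In that last comparison 1 gene (1.85%, against 10.4% of all genes) had p under 0.05 before adjustment, and DESeq2 called 1. By their sex-linked transcripts all 3 Digenic P3 libraries were female and all 3 Pkhd1-/- P3 libraries male. With sex in the fit the change was 0.67 against WT (adjusted p = 0.0479) and 0.56 against Pkhd1-/- (adjusted p = 0.270). The call against Pkhd1-/- was also lost without Pkhd1-/- replicate 1 or 3 or Digenic replicate 2, and without the adrenal-bearing libraries (0.54, adjusted p = 0.0593).

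Of the other genes at P3, Anks6 and Kif3b had the next largest positive values in Digenic (0.31 ± 0.10 and 0.33 ± 0.25) and Bbs10, B9d2 and Ift172 the largest negative ones (-0.27 ± 0.16, -0.20 ± 0.17 and -0.18 ± 0.13), none of them called. The value of B9d2 was 0.02 without WT replicate 2. Neither single mutant had a called gene at P3 (0.0443% of all genes passed in Pkd1-RC/RC, 0.0277% risen, and 0.0166% in Pkhd1-/-). Before adjustment 1 and 0 genes had p under 0.05 (4.46% and 2.19% of all genes), and DESeq2 called 0 in both. The interaction at P3 gave 0 as well (0.0% of all genes), also by DESeq2, and 0 before adjustment, where 8.08% of all genes had p under 0.05.

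**Figure D3:**
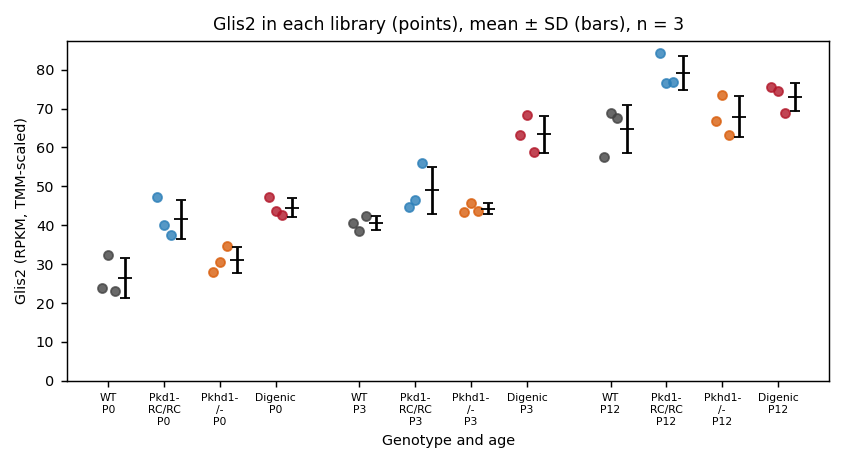
Glis2 level (RPKM, vertical axis) in each library by genotype and age; points are libraries and bars mean ± SD of 3. At P3 the Digenic libraries (58.8 to 68.3) sit above all others, and at P12 the Digenic (68.8 to 75.6) and WT (57.6 to 68.8) ranges overlap.

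At P12 the genes called in Digenic against WT were lower, and Glis2 was not among them. Against WT, 8 of the 54 genes fell in Digenic and 0 rose, where 11% of all genes fell and 12.0% rose (23% in all). The share fallen, 14.8%, is near that of all genes, so the falls are described as those of single genes. They were the BBSome genes Ttc8 and Bbs1, the IFT-B genes Ift80, Ift172, Ift20 and Ift74, the IFT-A gene Ift122 and the transition zone gene Cep290. None reached a 2-fold change, the log2 values running from -0.62 to -0.23. Of 12 MKS module and 4 motor genes, 0 were called.

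Ttc8 (chr12:98920574-98983238, plus strand) stood at 10.9, 9.74 and 11.2 RPKM in WT and at 8.62, 8.30 and 7.64 in Digenic, with Pkd1-RC/RC at 9.99 to 10.2 and Pkhd1-/- at 10.1 to 10.9. Its log2 change against WT was -0.38 ± 0.08 (adjusted p = 0.00395). Bbs1, another BBSome subunit, stood at 5.36, 4.81 and 5.14 in WT and 4.11, 4.16 and 3.89 in Digenic (-0.33 ± 0.08, adjusted p = 0.00871). Digenic lay below every other library for both genes.

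Ift80 (chr3:68892499-69004570, minus strand), a peripheral IFT-B subunit mutated in skeletal ciliopathies, stood at 2.75, 2.99 and 2.90 RPKM in WT and 2.23, 2.53 and 1.92 in Digenic (-0.38 ± 0.09, adjusted p = 0.00956). Cep290 (chr10:100488289-100573655, plus strand), whose product spans the transition zone, stood at 2.0, 1.61 and 1.92 in WT and 1.59, 0.953 and 1.06 in Digenic (-0.62 ± 0.17, adjusted p = 0.0178). For both genes no Digenic library reached the lowest library of another genotype. The calls of Ttc8, Bbs1 and Ift80 held without any 1 of the 6 libraries, and that of Cep290 was lost without WT replicate 1 or 3 or Digenic replicate 2 or 3.

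The remaining 4 falls had larger adjusted p. Ift172 stood at 7.91, 7.47 and 8.18 RPKM in WT and 6.43, 7.0 and 6.68 in Digenic (-0.23 ± 0.07, adjusted p = 0.0247). Ift20 stood at 23.1, 24.0 and 22.97 in WT and 19.3, 19.8 and 20.6 in Digenic (-0.23 ± 0.07, adjusted p = 0.0399). Ift74, which with Ift81 binds tubulin cargo, stood at 8.54, 9.53 and 8.23 in WT and 7.78, 7.36 and 5.80 in Digenic (-0.33 ± 0.11, adjusted p = 0.0472). In these 3 the groups did not overlap. Ift122 stood at 6.72, 5.83 and 6.88 in WT and 5.23, 5.92 and 4.87 in Digenic (-0.28 ± 0.09, adjusted p = 0.0349), and there they did. The largest positive values, none of them called, were those of Kif3b (0.21 ± 0.12) and Kif3a (0.19 ± 0.09), the kinesin-2 motor subunits, and Glis2 (0.17 ± 0.09). At P12 Glis2 stood at 57.6, 68.8 and 67.6 RPKM in WT and 75.6, 74.4 and 68.8 in Digenic, whose lowest value lay just below the highest of WT.

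The number of falls depended on the fit. It was 3 without WT replicate 1, WT replicate 3 or Digenic replicate 3, and 0 with all 36 libraries in 1 fit. Without the adrenal-bearing libraries, which leaves 1 Digenic library assumed to vary like the other groups, it was 1, Ift80 (-0.36, adjusted p = 0.0297), and Cep290 was at -0.20 (adjusted p = 0.476). Without Digenic replicate 1, the library with the header of another age, it was 7. Ttc8 alone of the 54 passed at FDR under 0.05 in the authors' deposited table, where 15.5% of all genes did.

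**Figure D4:**
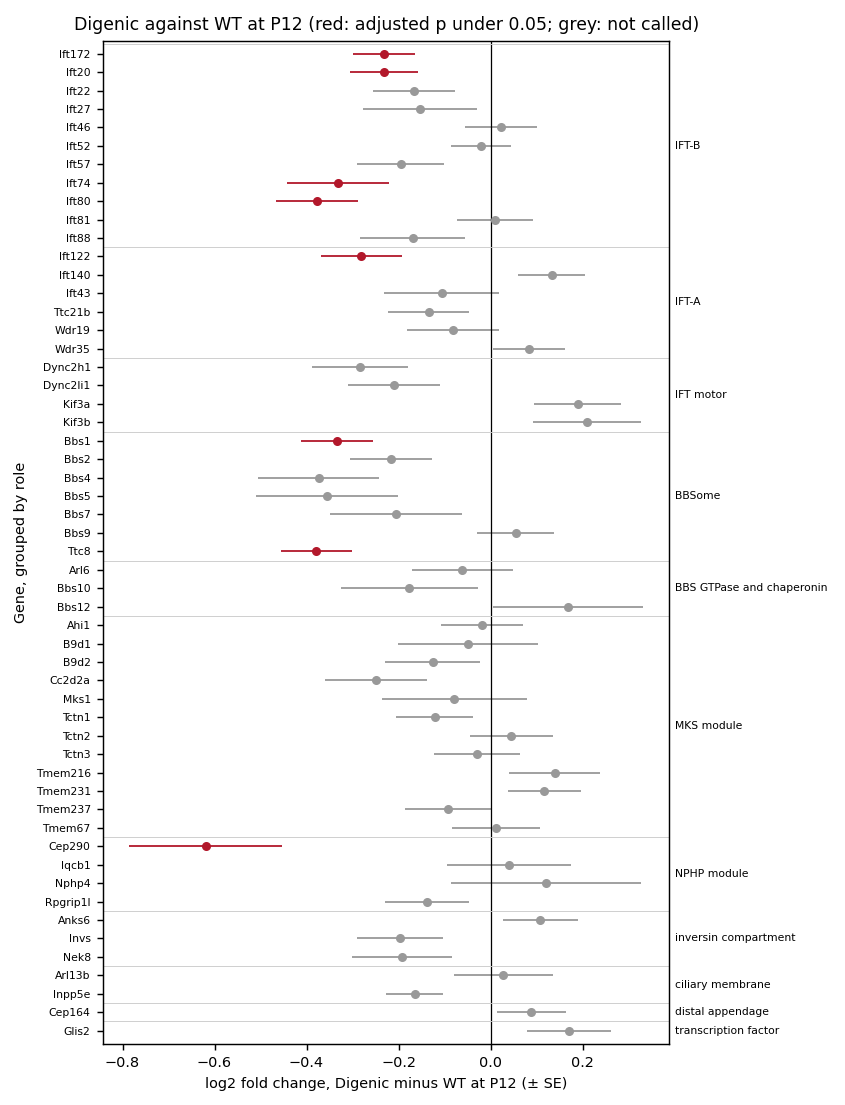
Log2 fold change of Digenic minus WT at P12 (horizontal axis, ± SE) for each of the 54 genes, grouped by role; red points passed adjusted p under 0.05. The 8 red points run from -0.62 for Cep290 to -0.23 for Ift172 and Ift20, and no gene passed on the positive side.

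**Figure D5:**
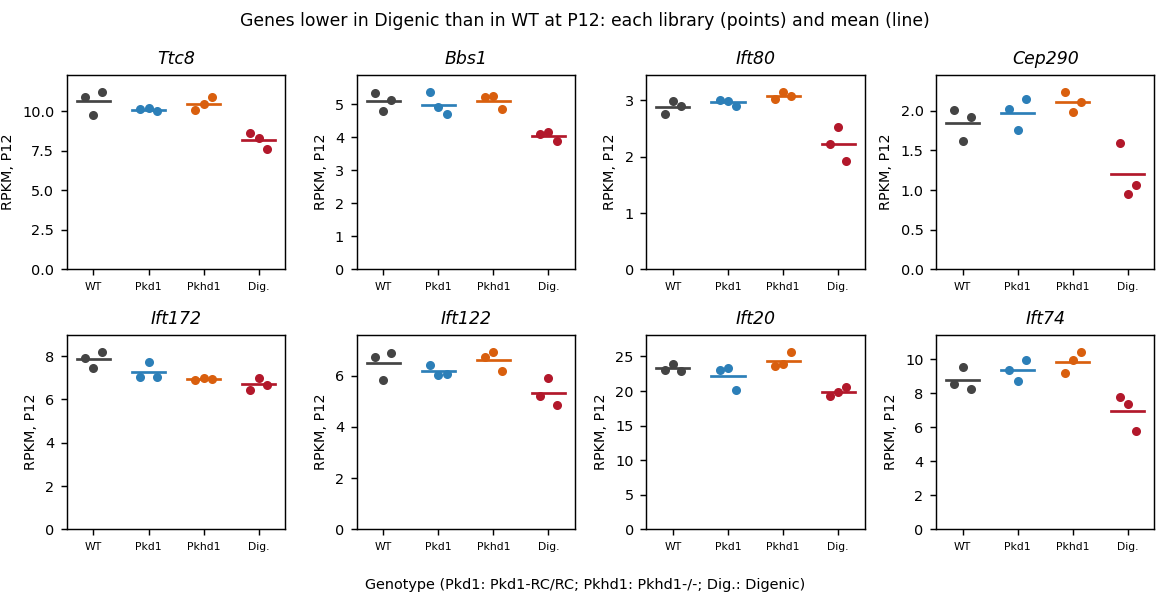
RPKM at P12 (vertical axis) of the 8 genes that fell in Digenic against WT, in 4 genotypes; points are libraries and lines means. For 7 of the 8 the Digenic points lie below all WT points, and for Ift122 they overlap. The genes were picked by their test against WT, so this separation is no further support.

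Neither single mutant had a called gene against WT at P12 (0.267% of all genes passed in Pkd1-RC/RC, and 0.0333% in Pkhd1-/-, 0.00555% risen and 0.0278% fallen). Before adjustment 3 and 4 genes (5.56% and 7.41%) had p under 0.05, shares near the 7.46% and 4.41% of all genes, and DESeq2 called 0 in both. Digenic was compared with each of them as well. Against Pkd1-RC/RC 10 genes fell and 1 rose (9.24% and 10.3% of all genes, 19.5% together), and against Pkhd1-/- 13 fell and 1 rose (12.6% and 15.5% of all genes). For each called gene the 3 Digenic libraries did not overlap those of the single mutant. The test had picked these genes from the same values, so this separation is no further support. The 4 falls with the smallest adjusted p were Ift80 (-0.42), Dync2h1 (-0.47), Cep290 (-0.72) and Bbs2 (-0.36) against Pkd1-RC/RC, and Ift80 (-0.47), Cep290 (-0.81), Ttc8 (-0.36) and Ift74 (-0.50) against Pkhd1-/-. Dync2h1 is the heavy chain of the retrograde motor. The counts fell to 5 without Pkd1-RC/RC replicate 3 or Digenic replicate 3 and to 6 without Pkd1-RC/RC replicate 1 in the first comparison. In the second they fell to 7 without Pkhd1-/- replicate 1, 8 without Pkhd1-/- replicate 3 and 9 without Digenic replicate 2 or 3. Without the adrenal-bearing libraries they were 2 and 1, with Cep290 at -0.30 (adjusted p = 0.292) and -0.40 (adjusted p = 0.175).

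Tmem231, an MKS module membrane protein, was the gene that rose against both. It stood at 11.9, 11.9 and 10.3 RPKM in Digenic, 9.46, 9.57 and 8.29 in Pkd1-RC/RC, 9.83, 9.40 and 9.73 in Pkhd1-/- and 10.4, 10.4 and 10.6 in WT. Digenic lay above both single mutants and overlapped WT. Its log2 change was 0.31 ± 0.08 against Pkd1-RC/RC (adjusted p = 0.0169), 0.23 ± 0.08 against Pkhd1-/- (adjusted p = 0.0448, lost in 5 of 6 fits without 1 library) and 0.12 ± 0.08 against WT (adjusted p = 0.323).

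The interaction at P12 asks whether the effect of both mutations differs from the sum of the single effects. It was negative for 5 genes (Cep290, Ift74, Cc2d2a, Dync2h1 and Ift80) and positive for Tmem231 (3.19% and 5.38% of all genes). The values ran from -0.91 ± 0.23 for Cep290 (adjusted p = 0.0326) to 0.43 ± 0.11 for Tmem231 (adjusted p = 0.0363). The count was 0 without any 1 of WT replicate 3, Pkd1-RC/RC replicate 1 or a Pkhd1-/- replicate. It was 1 without Pkd1-RC/RC replicate 3, 2 without WT replicate 2 or Digenic replicate 3, 3 without WT replicate 1, and 4 without Digenic replicate 2. With all 36 libraries in 1 fit it was 0, and without the adrenal-bearing libraries 1.

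Other transcripts moved with Digenic at P12. The macrophage list (4 of 5 genes in the table) summed to 212 to 491 CPM against 100 to 124 in WT, with 4 of 4 genes risen. The collecting duct principal cell list summed to 2170 to 2850 against 555 to 740, with 4 of 4 risen. The proximal tubule list summed to 3490 to 4040 against 4940 to 6140, with 3 of 6 fallen, and the loop of Henle list to 1750 to 2120 against 3090 to 3380, with 3 of 3 fallen. Also below WT were the nephron progenitor list (24.1 to 37.0 against 46.9 to 58.5) and the intercalated cell list (241 to 273 against 308 to 329). So were the podocyte list (574 to 815 against 887 to 973) and the endothelium list (403 to 552 against 593 to 646). The distal tubule, stroma, cell cycle, erythroid and muscle lists overlapped WT. The adrenal list ran from 2.18 to 137 in Digenic and from 3.08 to 3.15 in WT. Their part in the lower ciliary levels was not tested.

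A second list of 52 cilium genes outside the 54 (51 in the table) was read the same way. From P0 to P12 in WT 25 rose and 4 fell (49.0% and 7.84%, against 26.2% and 23.6% of all genes), with a median of 0.39. In Digenic against WT at P12 1 rose, Dcdc2a (1.6 ± 0.19), and 5 fell, among them Evc (-0.46 ± 0.07), a ciliary regulator of Hedgehog signalling, and Sclt1 (-0.44 ± 0.12), a distal appendage gene, with a median of -0.11. The 5 falls are 9.80% of the list, near the 11% of all genes, and the 1 rise is 1.96%, against 12.0%. Of 15 measured motile cilium genes, 4 rose (26.7%) and 3 fell (20%) in Digenic against WT at P12, against 12.0% and 11% of all genes. The rises were Ccdc40 (1.37 ± 0.33), Ccdc113 (1.36 ± 0.34), Tekt2 (0.73 ± 0.25) and Foxj1 (0.66 ± 0.20). The falls were Dnah9, an axonemal dynein (-2.0 ± 0.22), Dnah5 (-1.12 ± 0.24) and Dnah11 (-0.45 ± 0.15). Levels were low, the 15 genes summing to 44.8 to 49.7 CPM in Digenic and 51.7 to 56.7 in WT.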

How the data were processed

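Whole-kidney RNA was sequenced in 36 mouse libraries. Per the labels and the submitters' processing notes, the authors aligned reads to mm10 with TopHat2 through MAP-RSeq 2.1.0 and counted them with featureCounts. They also name edgeR, without a model. The authors' deposited table holds raw counts per gene, normalized values that matched log2(RPKM + 1) recomputed from the counts (100% within 0.001, for values with at least 20 counts), and the authors' log2 fold changes and FDR values.

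Counts were tested with edgeR 4.0.16 (R 4.3.3, limma 3.58.1): TMM scaling, filterByExpr and the quasi-likelihood test, adjusted over all genes tested and called at adjusted p under 0.05. Genotypes were compared within an age (12 libraries in the fit), ages in a fit of 36. SE is the log2 change divided by the root of F. DESeq2 1.42.0 and other settings were alternatives, among them a fit on DESeq2 size factors. Counts from the alternatives are given without the share of all genes passing in the same fit. Scripts were tested on simulated data. The genes and marker lists were chosen with earlier results of these data known. All called genes are named where at most 6 were called, otherwise up to 4 in each direction, and in Digenic against WT the 3 largest changes in each direction. Beyond this, all falls in Digenic against WT at P12 and all genes of the flagged results are named. Where called genes are said not to overlap between groups, the test had picked them from the same values. The share of all genes without overlap is not given. Gene positions are the deposited ones (mm10). The p-values set each change against the spread between mice within groups, estimated over all groups in the fit. They treat the libraries as independent, and the labels state no litter.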

Additional observations from a re-analysis of the deposited data

Results flagged for a closer look

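In 2 sets of results a difference between groups itself passed the test. In the first, the effect of both mutations at P12 differed from the sum of the single effects: -0.52 for Ift80, -0.91 for Cep290, -0.60 for Ift74, 0.43 for Tmem231, -0.53 for Dync2h1 and -0.55 for Cc2d2a, all on the log2 scale. In the second, the change from P0 to P12 differed between Digenic and WT kidneys: -1.01 for Ttc8, -0.97 for Ift122, -1.48 for Cep290, -0.58 for Glis2, -1.03 for Dync2h1, -0.56 for Cep164, -0.88 for Nek8, -1.03 for Bbs7, -0.61 for Wdr19 and -0.65 for Ift140. The second set uses the WT P0 libraries, of which replicates 1 and 3 had lower median levels of the 54 genes than all mutant libraries of that age. When 1 library was left out, the number of genes called ran from 0 to 7 in the first set and from 2 to 18 in the second. With all 36 libraries in 1 fit, 0 genes were called in the first set. Leaving out the adrenal-bearing libraries keeps 1 Digenic library at P12. In that fit the second set had -0.78 for Cep290, -0.42 for Glis2 and -0.95 for Ift122. In the first set 11.1% of the 54 were called, where 8.57% of all genes were. In the second set 18.5% of the 54 were called, where 8.79% of all genes were.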

How the results depend on the processing

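All values here are counts of the 54 genes called, given without the share of all genes passing in the same fit. Of 200 counts under other settings 171 stayed within 1.5 times the main count and 29 did not. Counts that were 0 in both fits are among the 171. Of 174 counts with 1 library left out, 126 stayed within 1.5 times the main count, again with counts that were 0 in both. Of 2840 values of called genes 0 reversed and 585 lost the call. With all 36 libraries in 1 fit, the P0 counts were 7 (Pkd1-RC/RC), 1 (Pkhd1-/-) and 12 (Digenic) against WT and 2 (Digenic against Pkhd1-/-); the P12 counts were 0 (Digenic against WT), 2 and 2 (against Pkd1-RC/RC and Pkhd1-/-) and 0 (interaction). DESeq2 gave 2 and 5 (Pkd1-RC/RC and Digenic against WT at P0), 1 (Digenic against Pkhd1-/- at P0) and 1 (Digenic against Pkd1-RC/RC at P3). Without the adrenal-bearing libraries (a setting chosen after seeing the data except at P3 and for WT from P0 to P3 and from P3 to P12), the counts were 0 (Digenic against WT at P0), 0 (Digenic against Pkhd1-/- at P3), 1, 2 and 1 (Digenic against WT, Pkd1-RC/RC and Pkhd1-/- at P12), 1 (interaction at P12), 16 and 8 (P12 against P0 in Pkhd1-/- and Digenic) and 1 (Digenic change against WT change). With sex in the fit, Digenic against Pkhd1-/- at P3 gave 0. With only the compared groups, WT P3 against P0 gave 16, P12 against P0 gave 21 in Pkhd1-/- and 8 in Digenic, and the Digenic against WT change gave 3; with the gene-length trend removed that change gave 6. With a replicate block, Digenic against WT gave 0 at P0 and 5 at P12, and no other count left that range. Correlations between the deviations of same-numbered libraries ran from -0.704 to 0.603, with medians of -0.10 at P0, -0.10 at P3 and 0.002 at P12. The number was not used as a pairing in the main fit. With 3 libraries a group these correlations cannot show whether some same-numbered libraries share an origin. Leaving out 1 library gave 0 to 4 for Digenic against WT at P0, 1 to 1 at P3 and 3 to 8 at P12, 0 to 1 for Digenic against Pkhd1-/- at P3, 5 to 13 and 7 to 15 for Digenic against Pkd1-RC/RC and Pkhd1-/- at P12, and 0 to 7 for the interaction at P12. It gave 22 to 32 for WT P3 against P0, 5 to 9 for WT P12 against P3, 31 to 40 for WT P12 against P0, 16 to 22, 22 to 30 and 8 to 13 for P12 against P0 in Pkd1-RC/RC, Pkhd1-/- and Digenic, and 2 to 18 for the Digenic against WT change; all other comparisons stayed at 0. B9d2, not called in Digenic against WT at P3 (-0.20), ran from -0.31 to 0.02 on the log2 scale (0.0175 without WT replicate 2). The cause of these shifts was not tested. Of 162 RPKM levels in WT, 141 moved by less than 1 SD when taken from the deposited normalized values.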
